A study of Bos taurus with 12 samples.

Results

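The miR-183 cluster (bta-miR-183, bta-miR-182 and bta-miR-96) and the miR-200 family (bta-miR-200a, bta-miR-200b, bta-miR-429, bta-miR-200c and bta-miR-141) were described in bovine granulosa cells of subordinate (SF) and dominant follicles (DF). The members were chosen by name, and all 8 were found among the 755 mature miRNA names of the count tables; where a mature miRNA was listed under several precursors, the entry with the most reads was kept. Small RNA libraries had been sequenced from granulosa cells of estrous-synchronized Simmental heifers that were slaughtered early in the luteal phase, at day 3 or day 7. Follicles were classified as SF or DF by their diameter, with higher upper limits at day 7 than at day 3 for both classes. Day and follicle size therefore cannot be told apart in comparisons between the days. The study isolated far fewer DF than SF on each day. This gave 4 groups of 3 libraries each, SF at day 3, DF at day 3, SF at day 7 and DF at day 7, with 160418 to 405129 miRNA reads per library. All heifers had received the same hormonal synchronization, and the 2 days came from different animals. Within a day, SF and DF were dissected from the ovaries of the same group of heifers. Libraries of SF and DF can therefore share animals, while they were tested as independent groups. The cells were recovered from follicular fluid that was pooled by follicle size, so a library can hold cells of several follicles. The labels call the libraries biological replicates without naming the animals behind each, so p-values measure the spread between these samples.

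MicroRNAs are short RNAs that lower the output of messenger RNAs, which they recognise mainly through a seed near their 5′ end. Genes of miRNAs that lie next to each other are often transcribed together, and such a group is called a cluster. The miR-183 cluster is best known from sensory cells, and miR-182 is also induced in activated lymphocytes. The miR-200 family is known in epithelia, where it represses ZEB1 and ZEB2, transcription factors that switch off epithelial genes such as E-cadherin. Within this family miR-200b, miR-200c and miR-429 share one seed, and miR-200a and miR-141 share another. All 8 genes were matched in the RefSeq gene table of assembly ARS-UCD2.0, where the 3 genes of the miR-183 cluster, the 3 genes of miR-200b, miR-200a and miR-429, and the 2 genes of miR-200c and miR-141 each stood as consecutive miRNA genes.

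Levels are given as raw reads or as normalized read counts, which are reads divided by a size factor for the depth of each library. In such bulk samples, fewer cells of a type and less RNA per cell cannot be told apart. The gonadal somatic miRNA miR-202 was present in all 12 libraries, at 2213 to 3673 normalized counts in SF at both days and in DF at day 3, and at 364 to 976 in DF at day 7. The summed level of 4 leukocyte miRNAs (miR-142-3p, miR-142-5p, miR-223 and miR-150) was 108 to 220 in SF at day 3, 116 to 162 in DF at day 3, and 783 to 8636 in DF at day 7. In SF of day 7 it was 184, 705 and 209 in replicates 1 to 3, so in this sum replicate 2 stood apart from its group. In that library miR-142-5p (597) and miR-150 (105) made up most of the sum.

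The members differed widely in abundance. They took 0.103% of all reads together, and 98.5% of their 3500 reads fell on the miR-183 cluster. bta-miR-182 was the most abundant with 2470 reads over the 12 libraries, followed by bta-miR-183 with 937, and both were read in every library. bta-miR-96 had 40 reads in 9 libraries. The whole miR-200 family had 53 reads. Ranked by mean normalized count among the miRNAs detected in each group, miR-182 held place 124 of 296 in SF at day 3, 94 of 318 in DF at day 3, 71 of 314 in SF at day 7 and 68 of 315 in DF at day 7.

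The level of bta-miR-183 was 20.5, 18.8 and 9.77 normalized counts in the 3 libraries of SF at day 3, and 28.6, 50.7 and 53.7 in DF at day 3. At day 7 it was 21.4, 249 and 36.1 in SF, and 143, 98.1 and 165 in DF. The lowest levels lay in SF at day 3 and the highest single level in replicate 2 of SF at day 7, 25.5 times the lowest library. Group means were 16.4 ± 5.78 in SF at day 3, 44.3 ± 13.8 in DF at day 3, 102 ± 127 in SF at day 7 and 135 ± 33.9 in DF at day 7 (SD, n = 3 each).

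bta-miR-182, a miRNA for which FOXO family messenger RNAs are known targets, followed the same order. Its level was 53.5, 82.1 and 26.9 normalized counts in SF at day 3 and 61.6, 153 and 137 in DF at day 3. It was 47.2, 589 and 120 in SF at day 7, and 346, 366 and 425 in DF at day 7. DF at day 7 was the most even group, with a coefficient of variation of 10.8%, and SF at day 7 the least even, with 117%. The means were 54.2 ± 27.6, 117 ± 48.7, 252 ± 294 and 379 ± 40.8 (SD, n = 3) in SF at day 3, DF at day 3, SF at day 7 and DF at day 7. For both miRNAs the mean of SF at day 7 lay within 1 of its own SDs of its neighbours in this order, DF at day 3 and DF at day 7.

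**Figure D1:**
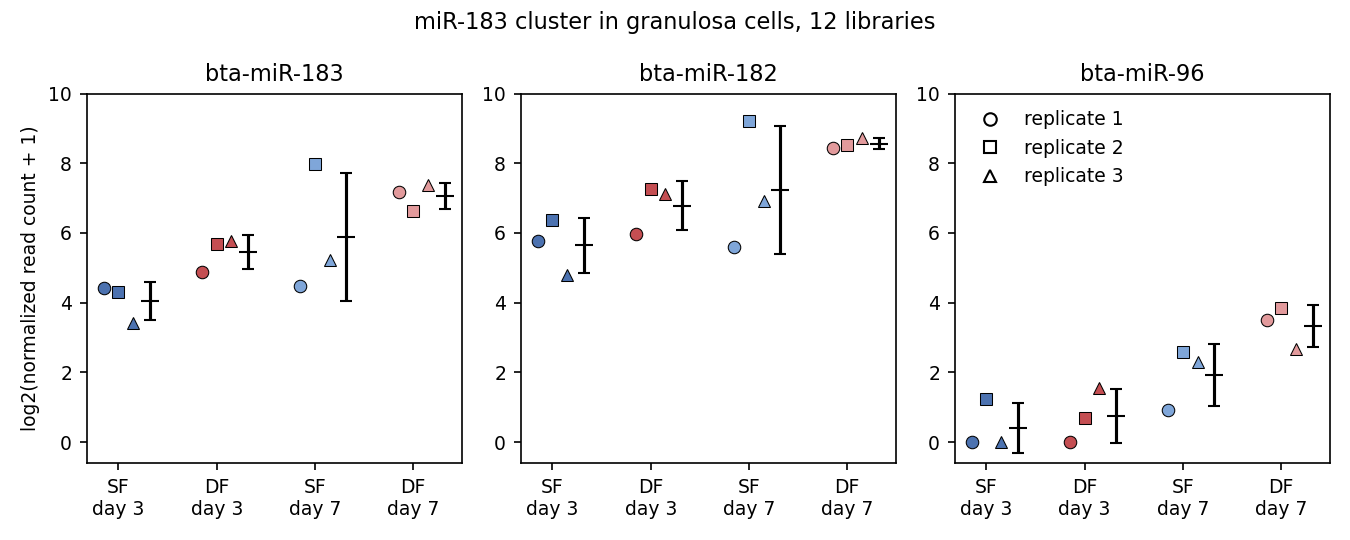
Level of bta-miR-183, bta-miR-182 and bta-miR-96 as log2(normalized read count + 1) in each of the 12 libraries, by group. Each symbol is a library with its shape giving the replicate number, and the bars beside them show mean ± SD on the log scale (n = 3). Replicate 2 of SF at day 7 lies far above its group for miR-183 and miR-182, and DF at day 7 is high for all 3.

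bta-miR-96 was near the limit of detection at day 3. It had 0, 1 and 0 reads in SF and 0, 1 and 2 reads in DF at day 3. At day 7 it had 1, 5 and 4 reads in SF and 12, 8 and 6 reads in DF, so DF at day 7 held 26 of its 40 reads and all of its libraries with more than 5 reads. A count of 0 allows up to 3 reads, which is 0.000741% to 0.00187% of a library.

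The make-up of the miR-183 cluster varied far less than its level. Reads on the cluster ranged from 30 to 833 per library, while the share of miR-182 among them stayed between 67.9% and 80.3%. Over all libraries this share was 71.7% (95% exact Clopper-Pearson interval 70.1% to 73.2%), and the interval of each of the 12 libraries held that value. In replicate 2 of SF at day 7, the library with the most cluster reads, the share was 69.9%. These intervals cover counting error only, since reads are PCR copies without molecular identifiers. There were 2.16 to 4.36 reads of miR-182 per read of miR-183, with a median of 2.59. miR-96 made up 0% to 2.79% of the cluster reads, and its share by group was 0.529% in SF at day 3, 0.461% in DF at day 3, 0.930% in SF at day 7 and 1.70% in DF at day 7. Ligation and amplification differ between miRNA sequences, so these shares are shares of reads and not of molecules.

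**Figure D2:**
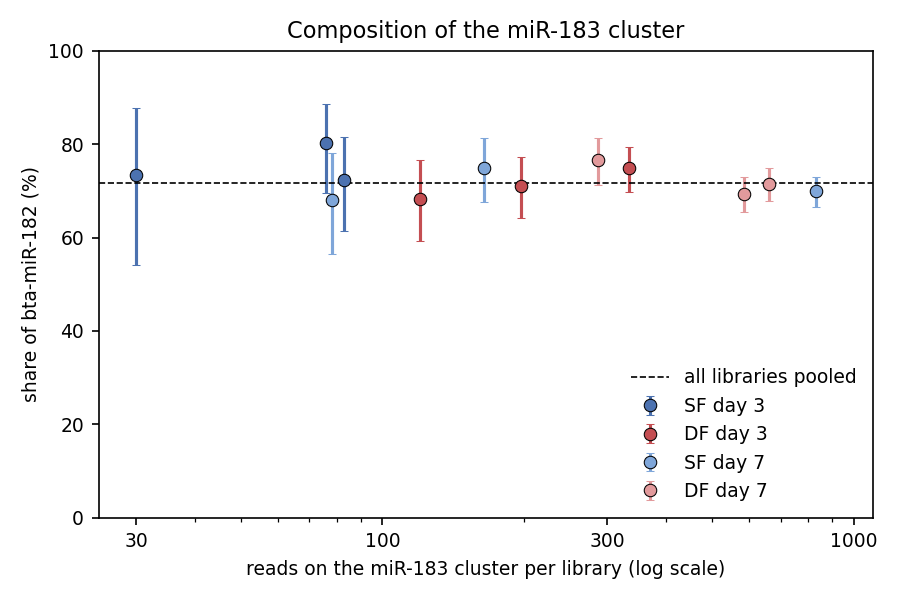
Share of bta-miR-182 among the reads of the miR-183 cluster (%) against the number of cluster reads per library (log scale). Each point is a library coloured by group, with its 95% exact binomial interval. The dashed line at 71.7% is the share over all libraries, and it crosses every interval while the cluster reads range from 30 to 833.

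The first comparison asked which miRNAs differ between SF and DF at day 3, when a dominant follicle is being selected. miR-183 and miR-182 were decreased in SF. miR-183 changed by a log2 fold change of -1.45 (SE 0.31, edgeR quasi-likelihood test, adjusted p = 0.00190), and all its SF libraries lay below all its DF libraries. For miR-182 the log2 fold change was -1.16 (SE 0.30, edgeR adjusted p = 0.0101), with overlap of replicate 1 of DF (61.6) and replicate 2 of SF (82.1). The third call was bta-miR-141, at -3.51 (SE 1.22, edgeR adjusted p = 0.0655), described with its family below. To be called differentially expressed, a miRNA had to change at least by 1 on the log2 scale, with p no higher than 0.05 and a false discovery rate (FDR) no higher than 10%. By that rule 3 of the 6 members tested were differentially expressed, against 5.67% of all 335 miRNAs tested. All 3 were lower in SF, and 1.79% of all miRNAs tested were called in this direction. Libraries of SF and DF did not overlap for 1 of the 6, and for 27.8% of all miRNAs tested. DESeq2 called 2 of the 6, miR-183 and miR-182. miR-141 was tested only through its reads in DF, the group where it was higher, since just 1 library of SF had a read. Its call therefore adds no support to the count of 3. miR-183 and miR-182 belong to 1 cluster, so their calls are not separate findings.

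Some marker miRNAs of other cell types also differed in this comparison at day 3. Of the list for multiciliated epithelium, miR-449a (3.80, edgeR adjusted p = 7.04e-05) and miR-449c (3.04, edgeR adjusted p = 0.0160) were higher in SF and miR-34c (-2.64, edgeR adjusted p = 0.0239) was lower. Of 6 miRNAs of mesenchyme, theca and smooth muscle, miR-214 was higher in SF (1.03, edgeR adjusted p = 0.0739). The median log2 fold change of these 6 was 0.80, compared with -0.04 over all miRNAs tested, and their summed level was 4117 to 5380 normalized counts in SF and 2448 to 4196 in DF. None of the leukocyte, erythrocyte or endothelial miRNAs tested was called. The part of these miRNAs in the decrease of miR-183 and miR-182 was not tested.

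The call of miR-182 at day 3 rested on single libraries. Without replicate 3 of SF its log2 fold change was -0.85 (edgeR adjusted p = 0.155), and without replicate 2 of DF it was -0.94 (edgeR adjusted p = 0.121). In a fit over all 12 libraries, in which the uneven SF libraries of day 7 entered the estimate of the spread, neither miR-183 (-1.41, edgeR adjusted p = 0.358) nor miR-182 (-1.12, edgeR adjusted p = 0.418) passed. miR-96 was tested at -0.88 (SE 1.54, edgeR adjusted p = 0.820) from 1 read in SF and 3 in DF. Its SE was larger than the change, so a difference of this size could not be shown at this depth.

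The same contrast at day 7 asked how SF and DF differ once dominance is established. With all 6 libraries and no replicate block, none of the 7 members tested was differentially expressed by edgeR or by DESeq2. Of all 350 miRNAs tested, edgeR called 33.4%. An unadjusted edgeR p under 0.05 was found for 0 of the 7, against 150 of the 350. The log2 fold change of miR-183 was -0.31 (SE 0.74, edgeR adjusted p = 0.745) and that of miR-182 -0.49 (SE 0.70, edgeR adjusted p = 0.603). The SF libraries reached from far below DF to above it for both. For miR-96 the groups did not overlap, with 0.891, 5.06 and 3.90 normalized counts in SF and 10.3, 13.3 and 5.40 in DF. Its log2 fold change was -1.43 (SE 0.67, edgeR adjusted p = 0.134), and 45.7% of all miRNAs tested did not overlap between these groups. Of the marker miRNAs tested, 3 of 4 for leukocytes, 2 of 2 for erythrocytes and 5 of 6 for mesenchyme, theca and smooth muscle were lower in SF. So was 1 of 4 for multiciliated epithelium, while miR-202 was higher and 0 of 2 for endothelium were called. The leukocyte miR-142-3p was 0, 1.01 and 0 normalized counts in SF, so it was tested only through DF, where it was higher. Its call adds no support to the count for leukocytes. The part of these miRNAs in the values of miR-183 and miR-182 was not tested.

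The values of miR-183 and miR-182 at day 7 depended on replicate 2 of SF. Without it, miR-183 was at -2.17 (SE 0.36, edgeR adjusted p = 0.00119) and miR-182 at -2.12 (SE 0.39, edgeR adjusted p = 0.00243), both differentially expressed and lower in SF. miR-96 was then at -1.88 (edgeR adjusted p = 0.104). It was called when only replicate 3 of DF was left out, at -1.76 (edgeR adjusted p = 0.0936). In replicate 2 of SF miR-183 was 8.66-fold and miR-182 7.05-fold the mean of the other 2 SF libraries of day 7. These were the highest ratios among the 185 miRNAs with a mean of at least 10 normalized counts, whose median ratio was 0.971. The next in order were the leukocyte miRNAs miR-142-5p at 3.71-fold and miR-150 at 3.18-fold, and the endothelial miR-126-3p at 2.79-fold. All 4 leukocyte miRNAs searched for had reads in the series. The others were not raised alike. In replicates 1 to 3 of SF at day 7 miR-223 was 0.891, 2.02 and 3.90 normalized counts, and miR-142-3p was 0, 1.01 and 0. Their part in the level of miR-183 and miR-182 in this library was not tested. Over the same 185 miRNAs the root mean square log2 difference from the mean of DF at day 7 was 1.91 for replicate 1 and 1.68 for replicate 3 of SF at day 7, and 1.50 for replicate 2. Replicate 2 was nearer to the mean of the other SF libraries of day 7 (0.661, compared with 0.694 for replicate 1 and 0.414 for replicate 3), to SF at day 3 (0.796) and to DF at day 3 (1.09). Replicate 1 was nearer to SF at day 3 (0.481) and to DF at day 3 (0.572) than to the other SF libraries of day 7. Over these miRNAs replicate 1 thus stood no nearer to its group than replicate 2 did.

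Between the days, the cluster increased in DF. All 3 members were higher in DF at day 7 than at day 3, with a log2 fold change of 1.60 for miR-183 (SE 0.29, edgeR adjusted p = 0.000536) and 1.68 for miR-182 (SE 0.30, edgeR adjusted p = 0.000449). For each of them every library of day 7 lay above every library of day 3. miR-96 changed by 3.42 (SE 0.84, edgeR adjusted p = 0.00489). Its reads, 26 at day 7 and 3 at day 3, gave a ratio of 12.0 after scaling for depth (95% interval 3.68 to 61.9, counting error only). DESeq2 also called these 3. In all, 3 of the 6 members tested were differentially expressed, against 40.3% of all 360 miRNAs tested and 24.4% in this direction, and 3 of the 6 did not overlap, against 50.0% of all. The changes of miR-183 and miR-182 took places 62 and 60 by size among 185 miRNAs with a mean of at least 10 normalized counts, so many miRNAs differed more between these groups.

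Other marker miRNAs moved with this contrast. All 4 leukocyte miRNAs and all 6 of a list for mesenchyme, theca and smooth muscle (such as miR-143, miR-145 and miR-214) were higher in DF at day 7, and miR-202 was lower. Also higher were 3 of the 4 multiciliated miRNAs tested (miR-449a, miR-449b and miR-449c) and the endothelial miR-126-3p, at 1.05 (edgeR adjusted p = 0.0100). Of all 360 miRNAs tested, 24.4% were called higher. In DF at day 3 miR-142-3p and miR-449b had no read, and miR-133a was 0, 1.22 and 0 normalized counts. They were tested only through DF at day 7, where they were higher, so their calls add no support to these counts. The sum of the multiciliated list was 6.76, 6.72 and 33.2 in DF at day 3 and 53.0, 8.32 and 81.0 in DF at day 7, so the groups overlapped. In replicate 3 of DF at day 3 this sum was mostly miR-34c (27.4), which was not called. The summed level of the mesenchymal list was 2448 to 4196 in DF at day 3 and 8531 to 16585 in DF at day 7. Their part in the increase of the miR-183 cluster was not tested. Within DF at day 7, the leukocyte sum was 3110, 8636 and 783 in replicates 1 to 3, and the mesenchymal sum 11955, 8531 and 16585. In the same libraries miR-182 was 346, 366 and 425, and miR-183 was 143, 98.1 and 165.

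In SF, no member of the cluster passed the test between day 7 and day 3. miR-183 had a log2 fold change of 2.65 (SE 0.74, edgeR adjusted p = 0.144), miR-182 of 2.24 (SE 0.69, edgeR adjusted p = 0.151) and miR-96 of 2.74 (SE 1.19, edgeR adjusted p = 0.427). Of the 6 members tested 0 were called by edgeR and 0 by DESeq2, and edgeR called 0.593% of all 337 miRNAs tested. An unadjusted edgeR p under 0.05 was found for 3 of the 6, against 37 of the 337. miR-183 and miR-182 nevertheless had the largest log2 fold changes in either direction among 184 miRNAs with a mean of at least 10 normalized counts, where the median size was 0.21. miR-183 did not overlap between the days, by a margin of 21.4 against 20.5 normalized counts, as 13.9% of all miRNAs tested did not. Without replicate 2 of SF at day 7 the log2 fold changes were 0.76 for miR-183 (SE 0.42, edgeR adjusted p = 0.714) and 0.59 for miR-182 (SE 0.44, edgeR adjusted p = 0.776). Without replicate 1 of SF at day 7, which leaves replicates 2 and 3, they were 3.11 (edgeR adjusted p = 0.000528) and 2.72 (edgeR adjusted p = 0.000459). Without replicate 3 they were 3.06 (edgeR adjusted p = 0.0817) and 2.59 (edgeR adjusted p = 0.0938). With all 3 libraries and no filter on low counts both were also called, at unchanged log2 fold changes of 2.65 (edgeR adjusted p = 1.55e-11) and 2.24 (edgeR adjusted p = 7.27e-13). The reads of both were the same as before, and only the SE fell, from 0.74 to 0.35 and from 0.69 to 0.28. These 2 p-values therefore do not measure the spread of the SF libraries of day 7, where miR-183 was 21.4, 249 and 36.1.

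An interaction term tested if SF and DF differed by unequal amounts on the 2 days, as the log2 ratio of SF to DF at day 7 minus that at day 3. It was 0.99 for miR-183 (SE 0.92, edgeR adjusted p = 0.482), 0.52 for miR-182 (SE 0.88, edgeR adjusted p = 0.716) and -0.67 for miR-96 (SE 2.59, edgeR adjusted p = 0.907). Of the 7 members tested 0 were called, against 26.5% of all 378 miRNAs tested. An unadjusted edgeR p under 0.05 was found for 0 of the 7, against 124 of the 378. The sign of the first 2 turned without replicate 2 of SF at day 7, to -0.84 for miR-183 (edgeR adjusted p = 0.267) and -1.07 for miR-182 (edgeR adjusted p = 0.210). A change of the difference between the days was thus not shown with or without this library.

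**Figure D3:**
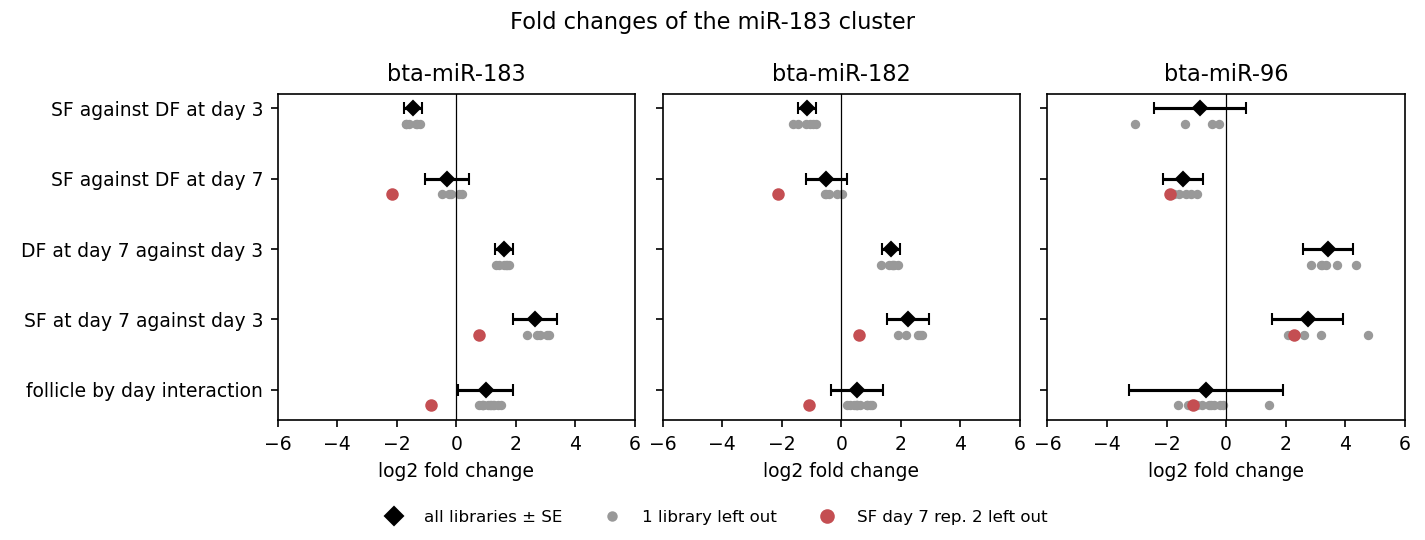
Log2 fold changes of bta-miR-183, bta-miR-182 and bta-miR-96 in the 4 comparisons and the interaction, with all libraries (black diamonds, ± SE) and with each library left out in turn (points below each diamond). The red point, without replicate 2 of SF at day 7, moves miR-183 from -0.31 to -2.17 in SF against DF at day 7, while the values for DF at day 7 against day 3 stay to the right of 0.

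The miR-200 family was hardly read in these cells. Of 60 pairs of a library and a family member, 36 had 0 reads and 3 had more than 3 reads. miR-141 had 26 reads in 7 libraries, miR-200a 13 in 5, miR-200b 8 in 6, miR-429 4 in 4 and miR-200c 2 in 2. By seed, miR-200a and miR-141 had 39 reads together, and miR-200b, miR-200c and miR-429 had 14. Replicate 2 of SF at day 3 held no read of any member.

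The reads that were present lay mostly in DF at day 3. Family reads were 5 in SF at day 3, 32 in DF at day 3, 10 in SF at day 7 and 6 in DF at day 7. Replicate 3 of DF at day 3 held 22 of them, 13 of miR-141 and 6 of miR-200a among them, and no other library held more than 8. At day 3 miR-200a had 2, 0 and 0 reads for SF, compared with 0, 0 and 6 for DF, and at day 7 it had 2, 2 and 0 for SF, compared with 1, 0 and 0 for DF. It was read in a single library of each day 3 group and of DF at day 7. miR-200b had at most 2 reads in a library and miR-429 and miR-200c at most 1.

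**Figure D4:**
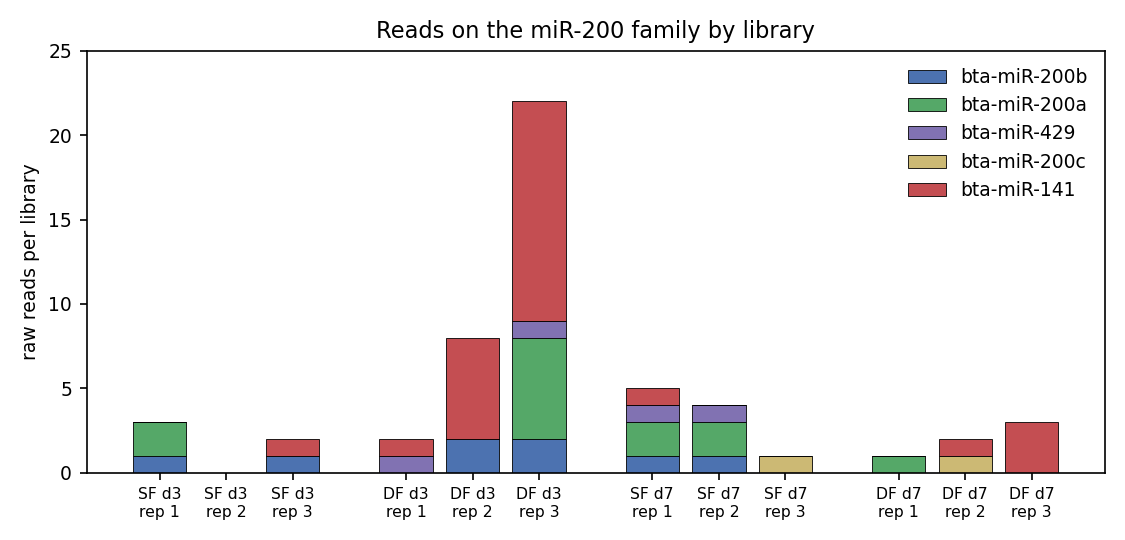
Raw reads of the miR-200 family per library, stacked by member. Bars start at 0, and replicate 3 of DF at day 3 reaches 22 reads, of which 13 are miR-141, while no other library exceeds 8.

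miR-141 was the member of this family with a call. At day 3 its libraries had 0, 0 and 1 reads for SF, compared with 1, 6 and 13 reads for DF. At day 7 they had 1, 0 and 0 reads for SF, compared with 0, 1 and 3 for DF. DF at day 3 was the highest group, and its lowest library lay within the range of SF. Scaled for depth, the 20 reads of DF and the 1 read of SF at day 3 gave a ratio of 13.5 with a 95% interval of 2.15 to 557 (counting error only). The call at day 3 was lost without replicate 3 of DF, at -2.37 (edgeR adjusted p = 0.253), under DESeq2 at -3.84 (adjusted p = 0.124), and in the fit over all 12 libraries at -3.46 (edgeR adjusted p = 0.212). Without replicate 1, 2 or 3 of SF it was lost as well, at -2.88, -3.17 and -5.66 (edgeR adjusted p = 0.232, 0.159 and 0.111). It was kept in 7 of 13 alternatives, among them a prior count of 2, which shrank the log2 fold change to -1.73. In replicate 3 of DF at day 3 the sum of 5 miRNAs of multiciliated epithelium (miR-449a, miR-449b, miR-449c, miR-34b and miR-34c) was 33.2 normalized counts, compared with 6.76 and 6.72 in replicates 1 and 2. That sum spanned 16.2 to 52.6 in SF at day 3, 11.6 to 38.4 in SF at day 7 and 8.32 to 81.0 in DF at day 7, and all 5 had reads in the series. In replicate 3 of DF at day 3 it was mostly miR-34c (27.4), with miR-449a at 3.91, miR-449c and miR-34b at 0.977 each, and miR-449b at 0. miR-449a made up most of the sum in replicate 1 of SF at day 3 (39.2 of 52.6) and replicate 3 of DF at day 7 (45.9 of 81.0). The part of these miRNAs in the reads of miR-141 was not tested.

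None of the other comparisons called a member of the miR-200 family. In DF, miR-141 had 20 reads at day 3 and 4 at day 7, a log2 fold change of -1.88 (SE 1.07, edgeR adjusted p = 0.175). Without replicate 1 of DF at day 3, miR-141 (-2.44, edgeR adjusted p = 0.0627) and miR-200b (edgeR adjusted p = 0.0814, from 4 reads at day 3 and 0 at day 7) were called. With no filter on low counts miR-141 was called as well (-1.88, edgeR adjusted p = 0.0978). In SF against DF at day 7 it was at -1.72 (SE 1.40, edgeR adjusted p = 0.365) from 1 and 4 reads, and miR-200a at 1.65 (SE 1.35, edgeR adjusted p = 0.365) from 4 and 1 reads. miR-200b and miR-429 had no read in DF at day 7 and 2 each in SF, so no fold is given for either. miR-200c was tested in no comparison, since no group had reads of it in 2 libraries. With at most 2 reads of miR-200b and 1 of miR-429 or miR-200c in any library, their differences rest on single reads.

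**Figure D5:**
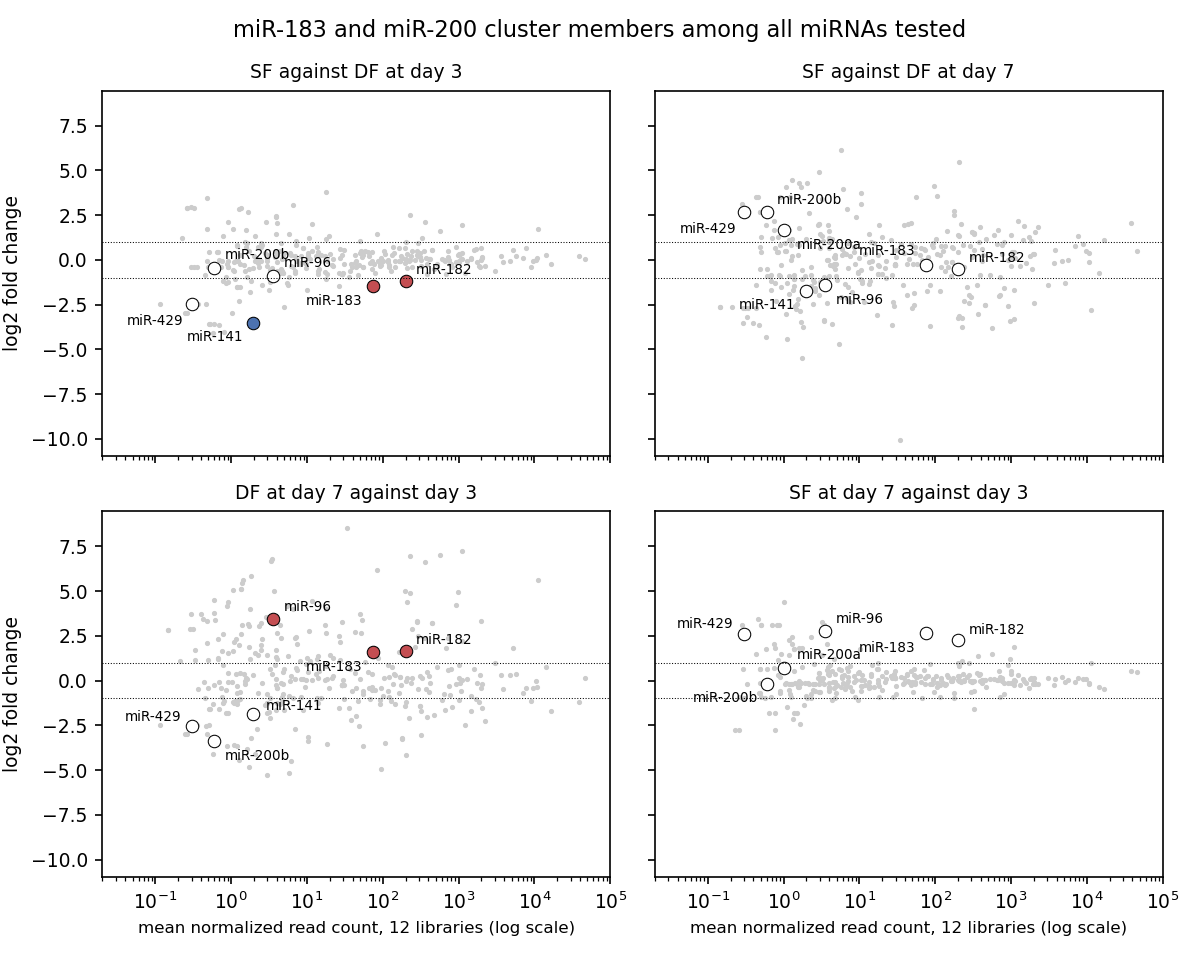
Log2 fold change against mean normalized count over the 12 libraries (log scale) for all miRNAs tested in each of the 4 comparisons. Grey points are other miRNAs, labelled circles are the members, filled where differentially expressed (red for the miR-183 cluster, blue for the miR-200 family) and open otherwise, and dotted lines mark log2 fold changes of 1 and -1. Members of the miR-200 family sit at the low end of abundance, where folds rest on few reads, and miR-183 and miR-182 stand apart from the grey points in SF at day 7 against day 3.

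Other epithelium-associated miRNAs were set beside the family. Of a list of 9 such miRNAs 8 were in the tables, and miR-205 and miR-375 had 0 reads in all 12 libraries. The 8 summed to 2673 to 2730 normalized counts in SF at day 3, 2425 to 2624 in DF at day 3, 2306 to 2992 in SF at day 7 and 897 to 1290 in DF at day 7, so the sum was lowest in DF at day 7. Most of it was miR-31 and miR-192, with means of 1848 and 719 in SF at day 3 and 522 and 427 in DF at day 7. miR-215 was not lowest there, with means of 50.3 in DF at day 7 and 47.1 in DF at day 3. In SF against DF at day 3, the contrast in which miR-183, miR-182 and miR-141 were called, 0 of the 5 tested were differentially expressed. The share over all 335 miRNAs tested was 5.67%. In DF at day 7 against day 3, 2 of the 5 were lower, miR-31 at -1.73 (edgeR adjusted p = 4.46e-05) and miR-194 at -1.27 (edgeR adjusted p = 0.0406), while the 3 members of the miR-183 cluster were higher. The others were not called, miR-192 at -0.74, miR-7 at -0.51 and miR-215 at 0.06. Of all 360 miRNAs tested, 40.3% were called in this contrast, in either direction. In SF against DF at day 7 only miR-31 of the 5 was called, higher in SF at 1.88 (SE 0.29, edgeR adjusted p = 0.000833). Of all 350 miRNAs tested, 33.4% were called there.

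The miRNAs whose profile over the 12 libraries was most like that of miR-182 outside the cluster were miR-28, miR-29a and miR-454. Their root mean square differences from it, on log2(normalized count + 1) centred per miRNA, were 0.849, 0.886 and 0.945, compared with a median of 1.48 over 183 candidates. Within the cluster the difference was 0.291 for miR-183 and 0.707 for miR-96, so miR-183 lay nearest of all. miR-28 kept the order of miR-182, with means of 41.6 ± 6.0 in SF at day 3, 47.1 ± 1.87 in DF at day 3, 48.7 ± 22.8 in SF at day 7 and 172 ± 9.92 in DF at day 7 (SD, n = 3). miR-454 was also lower in SF than in DF at day 3, at 8.08 ± 3.85 and 17.1 ± 6.11 (SD, n = 3). At day 7 it was 16.2 ± 2.33 in SF, below DF at day 3, and 29.6 ± 1.19 in DF (SD, n = 3). In replicate 2 of SF at day 7, where miR-182 was highest, miR-454 was 14.2, below the mean of its group, and miR-28 was 73.8. miR-29a had means of 212 ± 23.6 in SF at day 3, 148 ± 20.1 in DF at day 3, 278 ± 109 in SF at day 7 and 782 ± 90.4 in DF at day 7 (SD, n = 3), with 372 in replicate 2 of SF at day 7. Its mean at day 3 was higher in SF than in DF, the other way from miR-182, miR-28 and miR-454. With so few reads on the miR-200 family no such profile could be read for its members.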

How the data were processed

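Small RNA libraries (TruSeq) were sequenced by the authors from miRNA-enriched RNA of 12 granulosa cell samples, in 4 groups of 3 taken from the labels. CASAVA 1.8.0, FastQC and cutadapt are named in the submitters' processing notes. The authors aligned and quantified reads with miRDeep2 against bovine genome UMD 3.1 and miRBase, and deposited raw read counts per mature miRNA and precursor, with no normalization. Of 906 entries, 755 mature names were kept; 73 had several precursors, and their counts can share reads. Library totals were 160418 to 405129 reads. No miRNA sequences or coordinates are given, and gene neighbours come from RefSeq ARS-UCD2.0.

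Counts were tested with edgeR 4.0.16 in R 4.3.3 (quasi-likelihood, RLE factors, two-sided) on the 6 libraries of each comparison, or on all 12 for the interaction, for miRNAs with at least 1 read in 2 libraries of a group, with Benjamini-Hochberg adjustment over all miRNAs tested. SE was approximated from the F statistic. DESeq2 1.42.0, the tool of the study, was an alternative, with other scaling, filters, prior count, fits over all libraries, the replicate block and each library left out. Normalized counts are reads divided by median-of-ratios size factors. Scripts were tested on simulated data. All 8 members were named in every comparison, with the most alike miRNA of each cluster and the marker lists. Members and lists were chosen with earlier results of these data known. No libraries of a group agreed within counting noise (chi-square per degree of freedom at least 10.2). In SF at day 7 this value was 92.3 for replicates 1 and 2, 82.8 for 1 and 3, and 18.7 for 2 and 3. The highest was 128, for replicates 2 and 3 of DF at day 7.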

Additional observations from a re-analysis of the deposited data

How the results depend on the processing

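In DF at day 7 against day 3, miR-183 and miR-182 were called in all 14 alternatives and miR-96 in all 13 that tested it. miR-183 in SF against DF at day 3 was called in 13 of 14, and miR-182 in 11 of 14. The number of miRNAs called in SF against DF at day 3 (19) was 11 with DESeq2, 12 with a filter of at least 10 reads, 8 in a fit over all 12 libraries, and 10 (without replicate 1 of SF) to 21 with a library left out. The 3 members called there became 0 in the fit over all libraries and 1 (without replicate 3 of SF) to 3 with a library left out. In DF at day 7 against day 3 the 145 calls became 92 with that filter, and the members called were 3 to 5 (without replicate 1 of day 3) with a library left out. In SF at day 7 against day 3 the 2 calls became 5 with DESeq2, 12 with no filter, 0 with the filter of at least 10 reads, 1 in the fit over all libraries and 0 (without replicate 1 or 2 of day 3, or replicate 2 of day 7) to 20 (without replicate 1 of day 7) with a library left out. Without replicate 3 of day 3 they were 4, and without replicate 3 of day 7 they were 5. Its members called went from 0 to 2 with no filter and 0 to 2 with a library left out. In SF against DF at day 7 they were 0 to 2 with a library left out. The causes were not tested.

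The replicate numbers are not stated to mark animals or days, and samples of the same number did not deviate together in every pair (correlations of -0.12 to 0.14 over 185 miRNAs), so pairing was not shown. With the replicate number as a block, calls were 15, 115, 137, 7 and 106, against 19, 117, 145, 2 and 100 without it, for SF against DF at day 3 and day 7, DF and SF between days, and the interaction. Members called became 3 in SF against DF at day 7, with miR-183 at -1.15, miR-182 at -1.27 and miR-96 at -1.49 (edgeR adjusted p = 0.00696, 0.000755 and 0.0890). They became 2 in SF at day 7 against day 3, with miR-183 at 1.95 and miR-182 at 1.67 (edgeR adjusted p = 3.72e-05 and 1.08e-06). In DF at day 7 against day 3 they became 4, with miR-141 added at -1.98 (edgeR adjusted p = 0.0956).

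Some log2 fold changes, none of them called in the full comparison, turned their sign. In SF against DF at day 7, leaving out a library gave -2.17 (replicate 2 of SF) to 0.19 (replicate 1 of SF) for miR-183, with 0.10 without replicate 3 of SF, and -2.12 to 0.019 without the same replicates 2 and 1 for miR-182. miR-200b ranged from -0.96 to 0.092 at day 3, positive without replicate 3 of DF. In SF between days it ranged from -0.59 to 0.34, at 0.23 without replicate 3 of day 3 and 0.34 without replicate 3 of day 7. In the interaction the ranges were -0.84 to 1.50 for miR-183 and -1.07 to 1.04 for miR-182, both negative without replicate 2 of SF at day 7, and miR-182 was at -0.066 with the replicate block. They were -1.60 to 1.44 for miR-96, positive without replicate 2 of SF at day 3, -0.20 to 3.78 for miR-141, negative without replicate 1 of SF at day 7, and -1.23 to 5.47 for miR-200a, negative without replicate 3 of DF at day 3. Depth limits all values of miR-96 and the miR-200 family.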

Other observations

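In DF at day 7 miR-182 had the narrowest spread of the 4 groups, 1.23-fold from the lowest to the highest library, and miR-183 spanned 1.68-fold. Erythrocyte miRNAs (miR-451, miR-144 and miR-486) summed to 808 to 2322 normalized counts in the same libraries, 737 to 1087 in DF at day 3, 315 to 1642 in SF at day 3 and 438 to 515 in SF at day 7. The endothelial miRNAs miR-126-3p and miR-126-5p summed to 221 in replicate 2 of SF at day 7, to 90.9 and 102 in replicates 1 and 3, and to 130 to 160 in DF at day 7. The miRNAs most like miR-200a in profile were miR-296, miR-301a and miR-1388-5p (root mean square differences of 0.815, 0.829 and 0.844), and those most like miR-141 were miR-1388-5p, miR-6123 and miR-2284aa-1 (0.922, 0.954 and 0.965), but both references had means of 1.03 and 1.97 normalized counts, and these orders rest on single reads.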
